A study of Homo sapiens with 42 samples.

Results

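The G1 cyclins, the inhibitors of their kinases and the transcription factor E2F1 were followed in AC16 cells, a human line made by fusing ventricular heart cells with virus-transformed fibroblasts. The set holds 10 listed genes of 60606 in the gene table: CCND1, CCND2, CCND3, CCNE1, CCNE2, CDKN1B, CDKN1C, CDKN2B, CDKN2C and E2F1. They were listed by name as G1 control genes, and the rule itself used no measured value. The list was nevertheless chosen with earlier results of these data known. Polyadenylated whole-cell RNA was sequenced in 10 groups of 3 libraries, 30 in all, and expression was given in TPM, a share of all transcripts in a library that is corrected for transcript length.

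All 10 groups received doxycycline at 1 ug/ml. The group shScramble carried an inducible scrambled hairpin, and shRPL3 carried an inducible hairpin against RPL3, whose product belongs to the large subunit of the ribosome. The other 8 groups carried the RPL3 hairpin together with a lentiviral RPL3L construct, the muscle paralog of RPL3. The construct was wild type in RPL3L-WT and held 1 amino acid substitution in each of G27D, R161W, T189M, P291L, D308N, D308V and R343W. The sample titles call the construct itself inducible by doxycycline only in P291L. Hairpin cells were selected with hygromycin, and construct cells were sorted for BV421 signal. The labels do not say whether the 3 libraries of a group came from separate cultures. Each p-value therefore measures only the spread between libraries within groups, which 1 fit estimated over all 10 groups together. The comparisons ask what the RPL3 hairpin does, what wild-type RPL3L adds to it, and how each substitution differs from wild type.

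Cells pass from G1 into DNA synthesis when cyclin-dependent kinases inactivate the retinoblastoma proteins and so free the E2F factors. D cyclins activate CDK4 and CDK6 in response to growth signals, and E cyclins activate CDK2 later in G1. The INK4 inhibitors, here CDKN2B (p15) and CDKN2C (p18), bind CDK4 and CDK6 and keep D cyclins out. The CIP/KIP inhibitors, here CDKN1B (p27) and CDKN1C (p57), bind cyclin and kinase together. Adult heart muscle cells rarely divide and hold these kinases in check, whereas AC16 cells proliferate in culture.

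Apart from the labelled groups, the libraries fell into 2 unlabelled kinds. A principal component of 337 pseudogenes split 6 of the libraries from the other 24 with a gap of 14.0, while no other gap exceeded 1.99. The smaller set, called the second kind below, holds T189M 1 and 2, R161W 1, G27D 3 and the wild-type libraries RPL3L-WT 1 and 2. Differences are therefore given pooled and, as "within kinds", from a limma fit that holds the kind as a term. RPL3L-WT has 1 library of the first kind. Within kinds, contrasts of a first-kind group with RPL3L-WT therefore weigh that library more than RPL3L-WT 1 or 2. The latter enter through a kind difference estimated over the groups that hold both kinds. RPL3 averaged 1570 ± 38.8 TPM in shScramble and 536 ± 35.2 in shRPL3 (SD, n = 3). It was 1438 ± 334 in R161W, so the RPL3 level of the cells labelled R161W was near that of shScramble. T189M lay between, at 942 ± 263 TPM, with 780, 802 and 1246 in replicates 1 to 3. The remaining construct groups averaged from 519 TPM in RPL3L-WT to 730 in R343W. RPL3 was lower in second-kind libraries, at 445 and 439 TPM in RPL3L-WT 1 and 2 against 673 in RPL3L-WT 3. In G27D it was 723, 727 and 449 TPM, and in R161W 1059, 1686 and 1570. In first-kind libraries the lowest construct group was D308V at 569 TPM, beside 673 in RPL3L-WT, 674 in P291L and 695 in D308N. The library shRPL3 3 held 121 TPM of RPL3L, against 0.0290 and 0.0353 in shRPL3 1 and 2. Of 12 cardiomyocyte markers 11 averaged under 1 TPM and only GATA4 was above, with summed levels of 1.69 to 6.14 TPM. All 8 fibroblast markers averaged 1 TPM or more and summed to 4046 to 6020 TPM.

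Of the 10 genes, 8 had a mean of at least 1 TPM and were among the 14426 genes tested. CCND2 and CDKN1C were below that level. A limma F test for any difference among the 10 groups was past an adjusted p of 0.05 for 8 of the 8 tested members, against 73.4% of all genes tested. Nearly 3 in 4 genes of the table passed this test, so the count alone does not set the G1 genes apart. What follows gives the direction and size for each gene. All fold changes were computed on log2(TPM + 1), and in bulk RNA fewer expressing cells and less RNA per cell cannot be told apart.

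**Figure D1:**
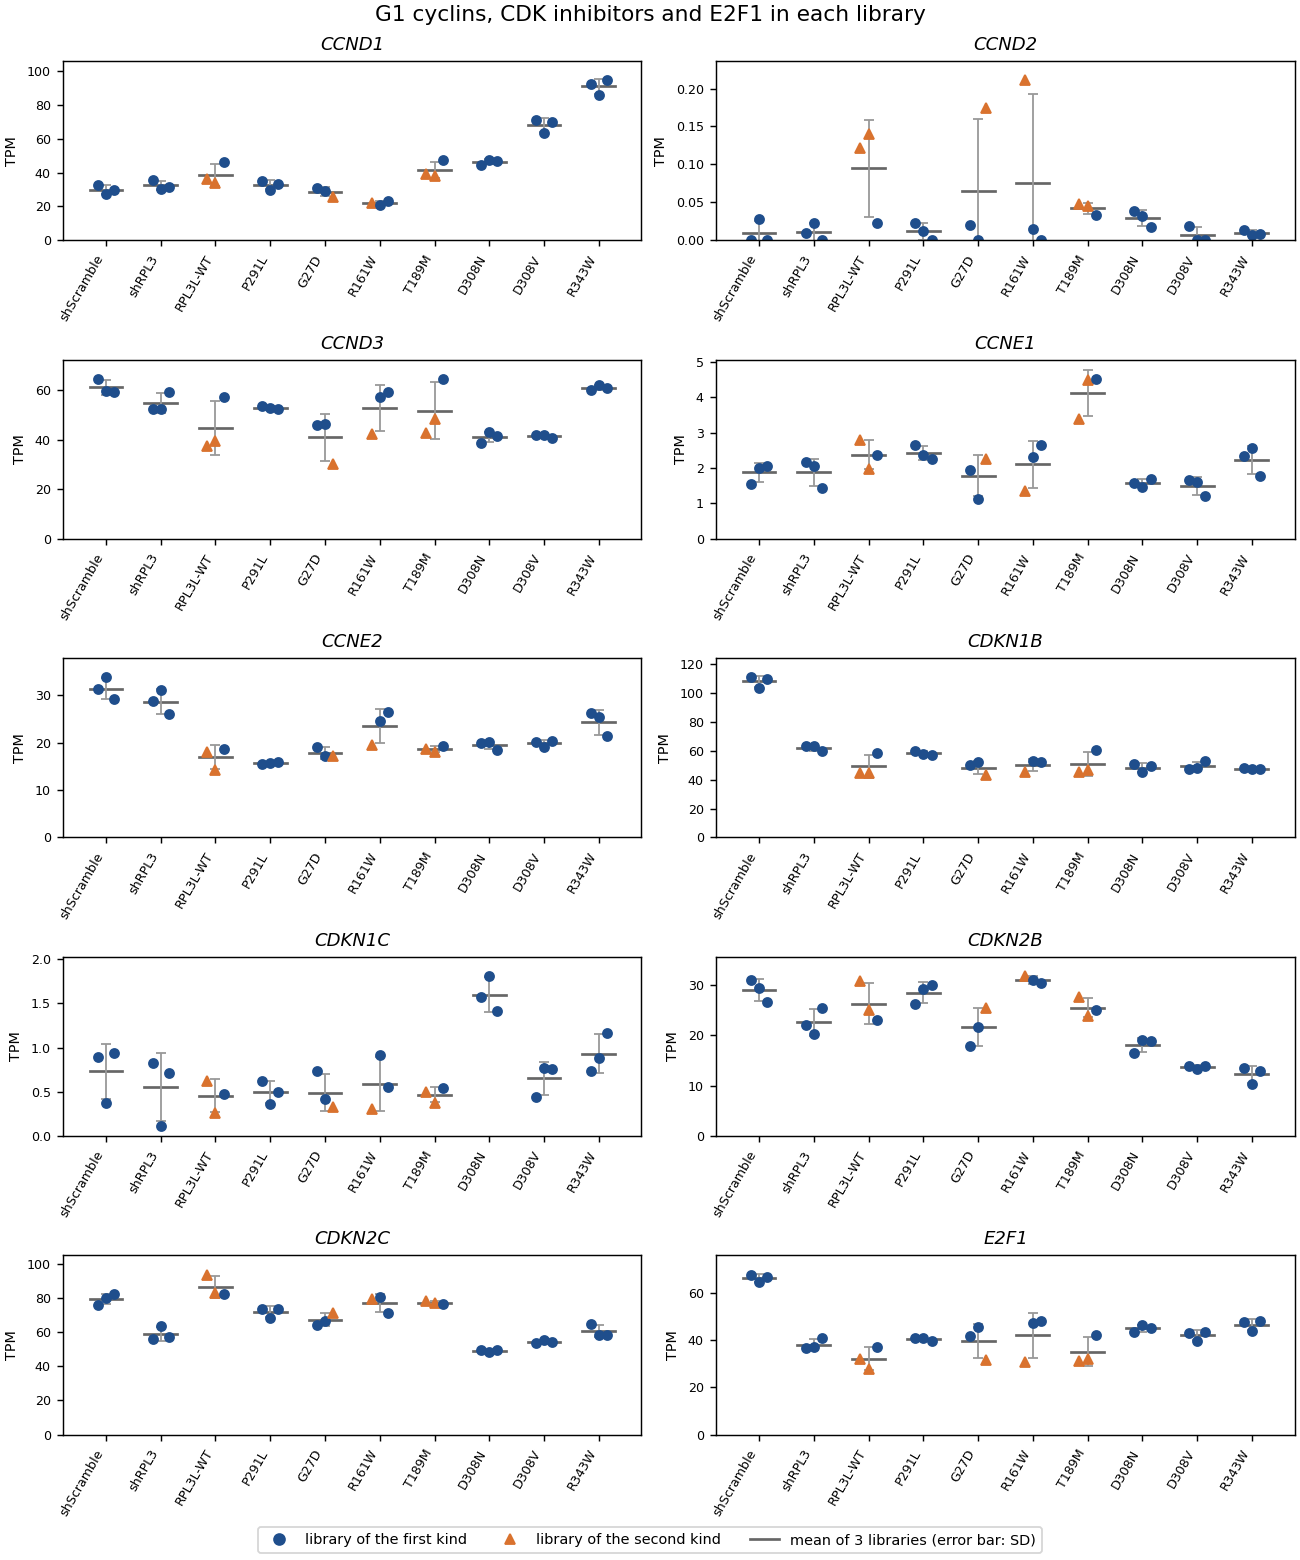
TPM of each of the 10 genes (y axis, from 0) in each library of the 10 groups (x axis), with circles for first-kind and triangles for second-kind libraries, a line at the group mean and a bar for the SD of 3 libraries. CCND1 runs from a mean of 21.9 TPM in R161W to 91.0 in R343W, CDKN2B runs the other way in those lines, and CDKN1B and E2F1 are highest in shScramble.

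CCND1, which codes for cyclin D1 (chr11:69641087-69654474, plus strand, in GENCODE 29 on GRCh38), spanned the widest range of the 8 tested genes. It was highest in R343W, with 92.5, 86.0 and 94.6 TPM in replicates 1 to 3. D308V followed with 71.3, 63.3 and 70.0 TPM. D308N, with another substitution of the same residue, held 44.8, 47.5 and 47.0 TPM. These 3 lines did not overlap each other, and all 27 other libraries were below the lowest R343W library. In RPL3L-WT the values were 36.4, 33.8 and 46.2 TPM, with the first-kind library 3 the highest. R161W was lowest with 22.1, 20.6 and 23.1 TPM, and all 27 other libraries were above its highest. Between D308N and R161W lay T189M (41.5 ± 4.96), RPL3L-WT (38.8 ± 6.57), P291L (32.9 ± 2.70), shRPL3 (32.5 ± 2.72), shScramble (29.8 ± 2.64) and G27D (28.7 ± 2.65). Each neighbour in that order overlapped the next, from D308N down to G27D.

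Against RPL3L-WT, CCND1 rose by 1.22 ± 0.10 (log2, SE) in R343W, with an adjusted p of 8.17e-09 by limma, and by 1.08 within kinds (adjusted p = 3.09e-09). It rose by 0.81 ± 0.10 in D308V (adjusted p = 4.19e-06), and by 0.67 within kinds (adjusted p = 4.96e-06). In R161W it fell by 0.78 ± 0.10 (adjusted p = 1.69e-05), and by 0.86 within kinds (adjusted p = 6.07e-08). Leaving out any 1 library of these groups ended none of these 3 calls, but the R161W call ended in a fit of the 2 groups alone (-0.78, adjusted p = 0.119). RPL3 was high in R161W (1438 ± 334 TPM), T189M (942 ± 263) and shScramble (1570 ± 38.8), where CCND1 averaged 21.9, 41.5 and 29.8 TPM. The part of the RPL3 level in the R161W result was not tested. In D308N the difference was 0.27, not past the threshold (adjusted p = 0.0506), which passed with a replicate block (adjusted p = 0.0281) and was at 0.12 within kinds. G27D was lower by 0.42 (adjusted p = 0.0238), a call that ended without RPL3L-WT 1 (adjusted p = 0.0509), RPL3L-WT 3 (0.0618), G27D 2 (0.0797) or G27D 3 (0.0590), and within kinds by 0.49 (adjusted p = 0.000347). P291L was at -0.22 pooled (adjusted p = 0.166) and passed within kinds at -0.36 (adjusted p = 0.0367), a call that held only without RPL3L-WT 2 or P291L 1 when 1 library was left out. T189M was at 0.10 both ways and did not pass.

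Set against shRPL3, which like the 3 lines has first-kind libraries only, CCND1 was higher by 1.46 in R343W (adjusted p = 4.19e-10), by 1.05 in D308V (adjusted p = 1.7e-07) and by 0.50 in D308N (adjusted p = 0.00117). Without the RPL3L-bearing library shRPL3 3 these were 1.44, 1.03 and 0.49, and all 3 still passed. The hairpin alone left no called difference in CCND1, at 0.12 against shScramble (adjusted p = 0.394). RPL3L-WT against shRPL3 was at 0.24 pooled (adjusted p = 0.0738) and passed within kinds at 0.38 (adjusted p = 0.00314, but 0.0839 without RPL3L-WT 3). The lines with substitutions of the same residue differed from each other directly: D308N was below D308V by 0.54 ± 0.10 on the log2 scale (adjusted p = 0.00517 by limma), with no overlap of their libraries.

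CCND2, the gene of cyclin D2 (chr12:4273772-4305350, plus strand), was close to absent from these libraries. Its values ran from 0 to 0.211 TPM, and 8 of the 30 libraries were listed at 0. The 6 highest values, from 0.0456 to 0.211 TPM, were those of the 6 second-kind libraries. At this level no difference between groups can be read, and in the fit without a filter on low values no comparison passed for CCND2.

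CCND3, the gene of cyclin D3 (chr6:41934933-42050357, minus strand), differed more between library kinds than between most groups. In RPL3L-WT it was 37.7, 39.6 and 57.3 TPM, in T189M 42.6, 48.3 and 64.5, and in G27D 46.2, 46.5 and 30.2. The second-kind libraries were the low ones in each of these groups and in R161W, by 15.9 to 19.1 TPM on average. Among groups with first-kind libraries only, shScramble (61.2 ± 3.00) and R343W (61.0 ± 0.966) were high and D308N (41.2 ± 2.17) and D308V (41.7 ± 0.713) were low. D308N and D308V did not overlap shRPL3, which held 52.4, 52.3 and 59.3 TPM. Pooled, D308N was at -0.40 (adjusted p = 0.0835) and D308V at -0.38 (adjusted p = 0.105) against shRPL3, and both passed with the kind term, which leaves the difference as it is and narrows the spread (adjusted p = 3.2e-06 and 7.83e-06 by limma). Against RPL3L-WT the pooled values were -0.10 in D308N and -0.08 in D308V, and -0.45 and -0.43 within kinds, both past the threshold there. R343W was higher than RPL3L-WT by 0.46 pooled (adjusted p = 0.0279) and at 0.11 within kinds (adjusted p = 0.182). That call also ended without any of RPL3L-WT 1, RPL3L-WT 2 or the 3 R343W libraries. Within kinds CCND3 also passed in G27D at -0.31 and in T189M at 0.21 against RPL3L-WT, in R343W at 0.16 against shRPL3, and in shRPL3 at -0.16 against shScramble, none of which passed pooled. The T189M call ended without RPL3L-WT 1 or T189M 2, and the R343W call without shRPL3 1, shRPL3 2, R343W 2 or R343W 3. RPL3L-WT against shRPL3 was at -0.30 pooled (adjusted p = 0.135) and at 0.05 within kinds (adjusted p = 0.592).

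CCNE1 (chr19:29811898-29824308, plus strand) codes for cyclin E1 and was a low transcript, with group means of 1.50 to 4.13 TPM. It was highest in T189M, with 3.38, 4.49 and 4.52 TPM, and all 27 other libraries were below the lowest of these. RPL3L-WT held 2.80, 1.98 and 2.37 TPM. The T189M difference was 0.60 ± 0.17 and did not pass pooled (adjusted p = 0.0624 by limma), and passed within kinds at the same 0.60 (adjusted p = 0.0221). T189M and RPL3L-WT hold the same number of libraries of each kind, so the kind term narrowed the spread without moving the difference. With 1 library left out, the call within kinds held only without RPL3L-WT 1 or T189M 1, in 2 of 6 fits. D308V, lowest with 1.67, 1.62 and 1.21 TPM, was at -0.43 against RPL3L-WT (adjusted p = 0.051), and at -0.49 within kinds (adjusted p = 0.0498). The latter call held in 1 of 6 fits with 1 library left out, without RPL3L-WT 2, and ended with a replicate block beside the kind term. RPL3 was higher in T189M (942 ± 263 TPM) than in RPL3L-WT (519 ± 134), and its part in the T189M difference of CCNE1 was not tested.

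CCNE2, the gene of cyclin E2 on chromosome 8, was the more abundant E cyclin in every library and was lower in construct cells. It was 31.2, 33.7 and 29.2 TPM in shScramble and 28.8, 31.2 and 26.0 in shRPL3, which overlap (-0.13, adjusted p = 0.363). In RPL3L-WT it was 17.9, 14.2 and 18.7 TPM, with no overlap. P291L was lowest with 15.4, 15.6 and 15.9 TPM. Of the 24 construct libraries 22 were below every shScramble and shRPL3 library, and the other 2 were R161W 3 (26.5) and R343W 1 (26.2). R343W (24.3 ± 2.63) and R161W (23.5 ± 3.64) were the highest of the construct groups.

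CCNE2 fell by 0.73 ± 0.10 in RPL3L-WT against shRPL3 (adjusted p = 2.95e-05 by limma), and by 0.61 within kinds (adjusted p = 7.8e-05). It fell against shRPL3 by 0.83 in P291L (adjusted p = 4.33e-06), by 0.53 in D308N (adjusted p = 0.000677) and by 0.50 in D308V (adjusted p = 0.00136). R343W was at -0.23 against shRPL3 (adjusted p = 0.125) and passed with the kind term (adjusted p = 0.0426) and in first-kind libraries alone (adjusted p = 0.0266). The kind-term call ended without shRPL3 1, shRPL3 2 or R343W 3. Against RPL3L-WT, CCNE2 was higher by 0.50 in R343W (adjusted p = 0.000806, 0.38 within kinds) and by 0.44 in R161W (adjusted p = 0.00484, 0.38 within kinds). The R161W call ended in a fit of the 2 groups alone (adjusted p = 0.295). Without shRPL3 3 the difference of RPL3L-WT from shRPL3 was -0.79, and that of P291L was -0.89.

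CDKN1B (chr12:12715058-12722371, plus strand), which codes for p27, was set apart in shScramble. Its values there were 111, 104 and 110 TPM, and all 27 other libraries were lower. In shRPL3 it was 63.3, 63.1 and 59.6 TPM, a fall of 0.79 ± 0.10 on the log2 scale (adjusted p = 1.89e-06 by limma, and 5.09e-12 with the kind term). Without shRPL3 3 the difference was -0.77 and passed. The 8 construct groups had means of 47.6 to 58.4 TPM, and neighbours in that order overlapped. P291L, the highest, lay wholly above G27D, R161W, D308N, D308V and R343W. RPL3L-WT held 44.4, 44.9 and 58.6 TPM, and the first-kind library 3 was the high one, near the shRPL3 values. RPL3L-WT was thus lower than shRPL3 by 0.34 pooled (adjusted p = 0.0144) but at -0.13 within kinds (adjusted p = 0.091), and the pooled call ended without RPL3L-WT 1 (adjusted p = 0.0891) or 2 (0.0865). R161W, whose RPL3 level was near that of shScramble, held 45.4, 53.0 and 52.5 TPM of CDKN1B.

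The lines of first-kind libraries can be set against shRPL3 directly. CDKN1B was lower by 0.38 in R343W (adjusted p = 0.0107), by 0.35 in D308N (adjusted p = 0.0172) and by 0.32 in D308V (adjusted p = 0.0316). The D308N call ended without shRPL3 1, shRPL3 2 or D308N 2, and the D308V call without any shRPL3 library or D308V 1 or 2. P291L was at -0.08 (adjusted p = 0.626), with libraries of 59.9, 58.1 and 57.3 TPM. Against RPL3L-WT the pooled differences of D308N, D308V and R343W were -0.02, 0.01 and -0.04, and within kinds -0.22, -0.19 and -0.25, each past the threshold. The within-kind calls ended without RPL3L-WT 3 in D308N and without RPL3L-WT 3 or D308V 1 in D308V.

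CDKN1C (chr11:2883213-2885773, minus strand), the gene of p57, was mostly under 1 TPM and so was not in the main test. In D308N it was 1.57, 1.81 and 1.42 TPM, and all 27 other libraries, from 0.117 to 1.17 TPM, were lower than the lowest of these. R343W came next with a mean of 0.931 TPM and D308V held 0.652. Fitted with no filter on low values, over 39832 genes, CDKN1C passed in D308N at 0.84 against RPL3L-WT (adjusted p = 0.00298 by limma) and at 0.77 against shRPL3 (adjusted p = 0.0089). In those fits 7.04% and 1.99% of genes were called higher. The direct difference of D308N from D308V was 0.66 and did not pass (adjusted p = 0.106).

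CDKN2B (chr9:22002903-22009363, minus strand), which codes for p15, fell in the lines where CCND1 was highest. R343W held 13.5, 10.3 and 13.0 TPM, D308V 13.8, 13.3 and 13.9, and D308N 16.4, 18.9 and 18.7. In RPL3L-WT it was 30.8, 25.0 and 23.0 TPM, and in R161W, the line with the least CCND1, 31.7, 30.9 and 30.3. R343W and D308V overlapped each other, and D308N lay above both and below RPL3L-WT with no overlap. On average, second-kind libraries were higher than first-kind ones of the same group by 0.713 to 5.66 TPM, although T189M 2 (23.9) was below the first-kind T189M 3 (25.0). Summed fibroblast markers were also low in the 3 lines, at 4075 to 4338 TPM in D308N, 4313 to 4608 in D308V and 4444 to 4650 in R343W. All were below the 5012 to 5588 of RPL3L-WT and the 4889.5 to 5234 of shRPL3. Among the 3 lines the sums rose from D308N to R343W, while CDKN2B fell in that order. The largest part of each sum was VIM, at 2158 to 3623 TPM over all libraries, so this order need not hold for each marker. G27D had sums of 4045.5 to 4544 TPM, with 17.9, 21.6 and 25.4 TPM of CDKN2B. The part of these markers in the result was not tested.

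Against RPL3L-WT, CDKN2B fell by 1.04 ± 0.12 in R343W (adjusted p = 6.32e-07 by limma), by 0.88 ± 0.12 in D308V (adjusted p = 7.57e-06) and by 0.51 ± 0.12 in D308N (adjusted p = 0.00211). Within kinds the 3 values were -0.92, -0.77 and -0.39, all past the threshold. Against shRPL3 it fell by 0.83 in R343W (adjusted p = 1.61e-05) and by 0.67 in D308V (adjusted p = 0.000278), and was at -0.30 in D308N (adjusted p = 0.079), which passed with the kind term (adjusted p = 0.0288) in all but the fits without shRPL3 1, shRPL3 3 or D308N 1. Without shRPL3 3 these were -0.74, -0.59 and -0.22. D308N was higher than D308V by 0.37, which did not pass pooled (adjusted p = 0.12) and passed with the kind term (adjusted p = 0.0289). When 1 library was left out as well, that call held in 1 of 6 fits, the one without D308N 1. The within-kind call of D308N against RPL3L-WT ended without D308N 1 (adjusted p = 0.0578) and in first-kind libraries alone (-0.34, adjusted p = 0.0957). The hairpin alone gave -0.35 against shScramble (adjusted p = 0.0221), from 30.9, 29.4 and 26.6 TPM to 22.0, 20.1 and 25.4. That call ended without shScramble 1 (adjusted p = 0.088), shScramble 2 (0.0584), shRPL3 1 (0.0616) or shRPL3 2 (0.113). P291L was at 0.33 against shRPL3 (adjusted p = 0.0526), and passed with the kind term (adjusted p = 0.0169) and without shRPL3 3 (0.42), while the kind-term call ended without shRPL3 2, P291L 2 or P291L 3. R161W was at 0.24 against RPL3L-WT (adjusted p = 0.166), and passed within kinds at 0.30 (adjusted p = 0.0446), which held in 1 of 6 fits with 1 library left out (without RPL3L-WT 1). The antisense gene CDKN2B-AS1 overlaps the same locus, and group means of it ran from 4.81 TPM in D308N to 8.86 in R161W. How strand entered the authors' quantification is not given in the sources used here.

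CDKN2C (chr1:50960745-50974633, plus strand), the gene of p18, was highest in RPL3L-WT, with 93.8, 82.8 and 82.6 TPM, all above the other 27 libraries. It had fallen with the hairpin, from 76.2, 79.7 and 82.4 TPM in shScramble to 55.8, 63.3 and 57.1 in shRPL3, by 0.43 ± 0.06 on the log2 scale (adjusted p = 1.35e-05 by limma). It was higher in RPL3L-WT than in shRPL3 by 0.55 ± 0.06 (adjusted p = 2.74e-06), and by 0.50 within kinds (adjusted p = 3.47e-06). Without shRPL3 3 the 2 differences were -0.41 and 0.53. P291L also rose against shRPL3, by 0.29 (adjusted p = 0.00241). D308N was lowest with 49.5, 48.2 and 49.4 TPM, below all 27 other libraries, followed by D308V with 53.4, 55.5 and 54.1.

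Against RPL3L-WT, CDKN2C fell by 0.80 ± 0.06 in D308N (adjusted p = 4.92e-09), by 0.66 ± 0.06 in D308V (adjusted p = 9.78e-08) and by 0.50 ± 0.06 in R343W (adjusted p = 3.35e-06). The 3 values were -0.75, -0.60 and -0.45 within kinds. It fell by 0.35 in G27D (adjusted p = 0.0023), and by 0.33 within kinds (adjusted p = 0.000427), but was not past the threshold in a fit of the 2 groups alone (adjusted p = 0.68). P291L was at -0.26 pooled (adjusted p = 0.0307), a call that ended within kinds (-0.21, adjusted p = 0.0882) and without any of RPL3L-WT 1 or 2 or the 3 P291L libraries. Against shRPL3 the levels of D308V (-0.11, adjusted p = 0.282) and R343W (0.04, adjusted p = 0.696) did not differ past the threshold. D308N was lower than shRPL3 by 0.25 (adjusted p = 0.0066), a call that ended without shRPL3 2 and with median-ratio scaling (-0.19, adjusted p = 0.14). Summed fibroblast markers were low in D308N, D308V and R343W, as given above, and also in G27D, at 4045.5 to 4544 TPM, and their part in the CDKN2C result was not tested.

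E2F1, the transcription factor released when retinoblastoma proteins are phosphorylated, lies at chr20:33675683-33686404 on the minus strand. E2F factors are known to bind and control the E2F1 promoter itself. The 250 bases before its RefSeq start are shown because E2F words stand in them. They are chr20:33686386-33686635 of GRCh38.p14, printed on the minus strand from 5′ to 3′, and the last of these bases lie in the first exon of the GENCODE 29 model. Capitals mark E2F words.
E2F1 promoter: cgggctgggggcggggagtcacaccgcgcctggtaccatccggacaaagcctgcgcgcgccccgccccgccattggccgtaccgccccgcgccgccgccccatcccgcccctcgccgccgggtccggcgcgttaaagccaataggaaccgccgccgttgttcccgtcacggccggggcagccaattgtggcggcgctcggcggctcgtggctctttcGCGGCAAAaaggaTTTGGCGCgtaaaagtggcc
The words searched on both strands were TTTCCCGC, TTTCGCGC, TTTGCCGC and TTTGGCGC. The first match, GCGGCAAA, is TTTGCCGC on the other strand, and the second is TTTGGCGC. Such a word stood in 979 of 35116 RefSeq promoter windows of this length, or 2.79%. Of the 10 genes 6 had a window (CCND3, CCNE1, CDKN1B, CDKN2B, CDKN2C and E2F1), and only that of E2F1 held a word. A match describes letters and not a bound site, and nothing on the factor follows from a window without one.

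E2F1 was 67.8, 64.6 and 66.8 TPM in shScramble, and all 27 other libraries were lower. In shRPL3 it was 36.5, 36.9 and 40.9 TPM, a fall of 0.79 ± 0.14 on the log2 scale (adjusted p = 0.000109 by limma, and 2.39e-10 with the kind term). Without shRPL3 3 it was -0.84. The fitted falls of E2F1, which drives S phase entry, and of CDKN1B, which restrains it, were both 0.79. RPL3L-WT held 31.9, 27.6 and 37.0 TPM and overlapped shRPL3. The difference was -0.24 pooled (adjusted p = 0.174) and 0.05 within kinds (adjusted p = 0.622). R343W (47.5, 43.8 and 48.1), D308N (43.5, 46.3 and 45.2) and D308V (43.2, 39.8 and 43.6) lay above RPL3L-WT with no overlap. On average, second-kind libraries were lower in E2F1 than first-kind ones of the same group by 7.26 to 16.8 TPM.

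Against RPL3L-WT, E2F1 was higher by 0.52 in R343W (adjusted p = 0.00627 by limma) and by 0.48 in D308N (adjusted p = 0.0114). Within kinds these were 0.23 (adjusted p = 0.0144) and 0.18 (adjusted p = 0.0486), and pooled both calls ended without RPL3L-WT 2 (adjusted p = 0.0507 and 0.0809). D308V was at 0.39 pooled (adjusted p = 0.0392) but at 0.09 within kinds (adjusted p = 0.358), and that call ended without any of RPL3L-WT 1 or 2 or the 3 D308V libraries. R161W was at 0.36 pooled (adjusted p = 0.0843) and passed within kinds at 0.21 (adjusted p = 0.0197). Left out 1 at a time, 4 of 6 libraries ended the within-kind call in D308N (RPL3L-WT 2 or 3, D308N 2 or 3), as did a replicate block beside the kind term (adjusted p = 0.0555). RPL3L-WT 3 (0.14, adjusted p = 0.247) or R343W 3 (adjusted p = 0.0525) ended that in R343W. The R161W call within kinds held only without RPL3L-WT 1 or R161W 1, in 2 of 6 fits. Against shRPL3, D308N at 0.24 and R343W at 0.28 did not pass pooled (adjusted p = 0.276 and 0.177). They passed with the kind term (adjusted p = 0.00473 and 0.00102) and with the median-ratio scaling described below (adjusted p = 0.0419 and 0.0186).

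**Figure D2:**
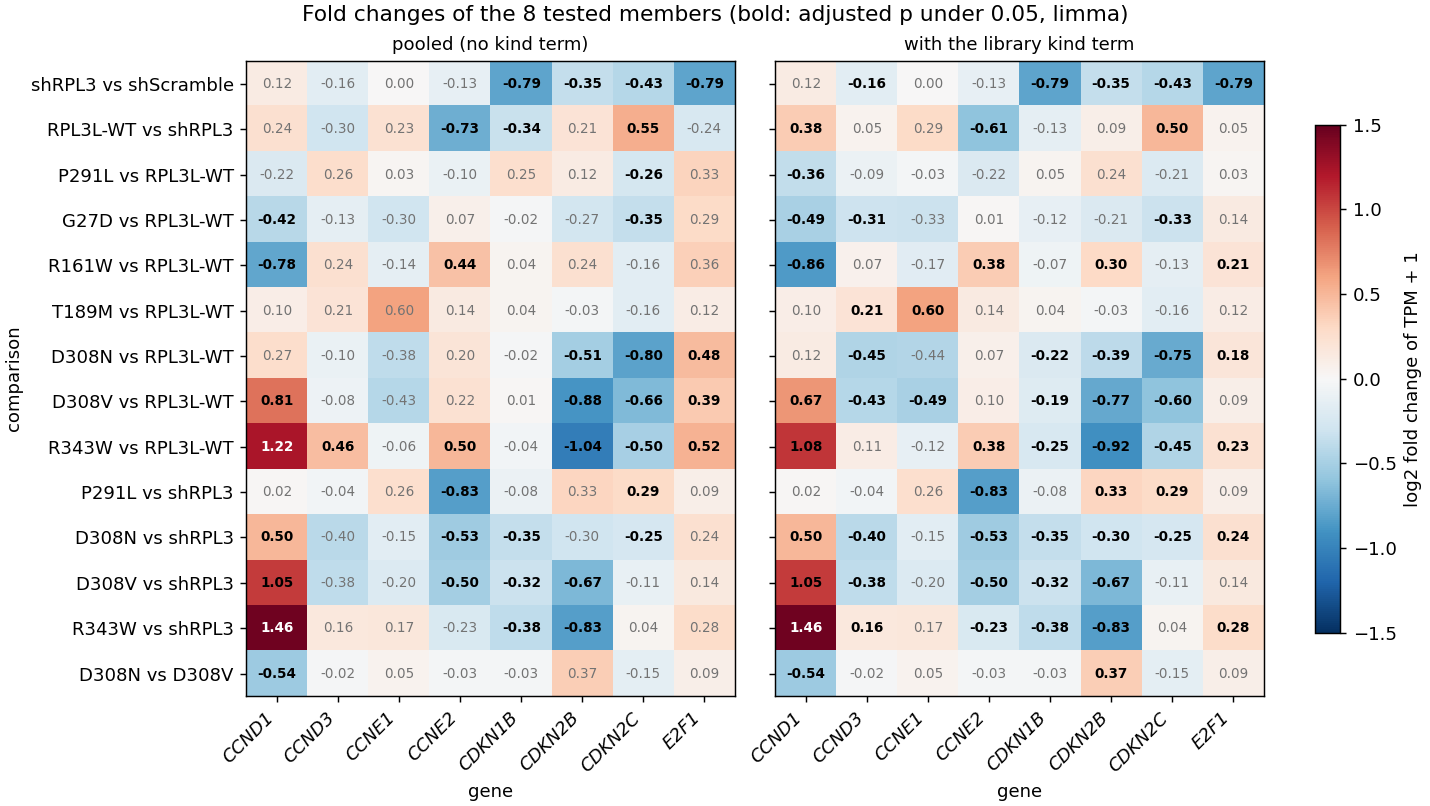
Log2 fold changes of TPM + 1 for the 8 tested genes (columns) in 14 comparisons (rows), pooled on the left and with the library kind term on the right, with bold figures for an adjusted p under 0.05 in limma. The deepest cells are CCND1 at 1.46 in R343W against shRPL3 and CDKN2B at -1.04 in R343W against RPL3L-WT, and the column of CDKN1B holds -0.79 for the hairpin.

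With the RPL3 hairpin alone, no cyclin had a pooled call. In shRPL3 against shScramble, 4 of 8 tested members fell (CDKN1B, E2F1, CDKN2C and CDKN2B, the last ended by 4 of 6 libraries left out) and 0 rose, where 18.0% of all genes fell and 17.2% rose. With the kind term CCND3 was added, for 5 lower and 0 higher, where 24.5% fell and 24.4% rose. The CCND3 call ended without shScramble 1, shRPL3 1 or shRPL3 2. CDKN1C, fitted without a filter, was at -0.18 (adjusted p = 0.716). The median over the 8 was -0.26, beside -0.01 over all genes tested. CDKN2D, the INK4 gene of p19, fell as well (-0.87, adjusted p = 1.76e-06), and so did SKP2 (-0.86), from 61.4 to 33.4 TPM, whose product marks p27 for degradation.

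With wild-type RPL3L added to the hairpin, CCNE2 was lower and CDKN2C higher in both fits, and CDKN1B was lower in the pooled fit. Pooled, this was 1 member higher and 2 lower in RPL3L-WT against shRPL3, where 5.77% of all genes were higher and 30.2% lower. Within kinds CCND1 and CDKN2C were higher and CCNE2 lower, 2 and 1, where 6.27% and 20.1% of genes were. The median of all genes in this comparison was itself -0.19 (-0.10 within kinds). A median-ratio scaling of the libraries brought it to 0.00. On that scale CCND1 (0.45, adjusted p = 0.000314) and CDKN2B (0.42, adjusted p = 0.028) passed as higher and CDKN1B (-0.12) no longer passed, while CCNE2 (-0.52) and CDKN2C (0.77) kept their calls.

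Against RPL3L-WT, 0 members rose and 1 fell in P291L, where 1.66% and 1.09% of genes did, and within kinds 0 and 1, where 0.825% and 1.16% did. In G27D 0 rose and 2 fell, against 1.55% and 1.77% of genes, and within kinds 0 and 3, against 4.31% and 6.02%. In R161W 1 rose and 1 fell, against 12.6% and 4.07%, and within kinds 3 and 1, against 16.1% and 8.87%. In T189M 0 rose and 0 fell by limma, against 1.39% and 0.409%, and within kinds 2 and 0, against 7.51% and 3.08%. The largest value in T189M was that of CCNE1, described above, and no member of T189M moved down with a call in either fit.

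CDKN2B and CDKN2C were lower than in RPL3L-WT in each of the remaining 3 lines. In D308N 1 member rose and 2 fell, where 23.7% of genes rose and 9.48% fell, and within kinds 1 and 4, where 17.5% and 12.8% did. In D308V 2 rose and 2 fell, where 21.6% and 9.03% did, and within kinds 1 and 5, where 16.2% and 12.7% did. In R343W 4 rose and 2 fell, where 24.5% and 9.19% did, and within kinds 3 and 3, where 18.8% and 12.6% did. They were the 2 that fell in the pooled fits. As the 3 comparisons share the RPL3L-WT libraries, these are not separate observations of RPL3L-WT. With the libraries scaled by median ratio, CCND3 in R343W (0.31, adjusted p = 0.0543) and E2F1 in D308V (0.26, adjusted p = 0.0632) lost their calls, and CDKN1B in R343W (-0.19, adjusted p = 0.0279) and CCNE1 in D308N (-0.49, adjusted p = 0.0266) and D308V (-0.53, adjusted p = 0.0186) gained one. All-gene medians in the unscaled comparisons of R161W, D308N, D308V and R343W with RPL3L-WT were 0.10, 0.13, 0.11 and 0.13.

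Comparisons of P291L, D308N, D308V and R343W with shRPL3 hold first-kind libraries only. Their pooled calls still draw on a spread that takes in the groups of mixed kinds. In P291L 1 member rose and 1 fell, where 4.67% and 15.0% of genes did, and 2 and 1 with the kind term, where 8.52% and 27.3% did. In D308N 1 rose and 3 fell, where 5.73% and 12.4% did, and 2 and 5 with the kind term, where 11.2% and 22.2% did. In D308V 1 rose and 3 fell, where 5.19% and 11.1% did, and 1 and 4 with the kind term, where 9.67% and 22.4% did. In R343W 1 rose and 2 fell, where 7.22% and 12.4% did, and 3 and 3 with the kind term, where 12.7% and 22.8% did. CCND1 was the member that rose in the 3 latter lines. Between D308N and D308V, 0 members were higher and 1 lower in D308N, where 0.776% and 0.866% of genes were, and with the kind term 1 and 1, where 4.07% and 4.19% were.

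**Figure D3:**
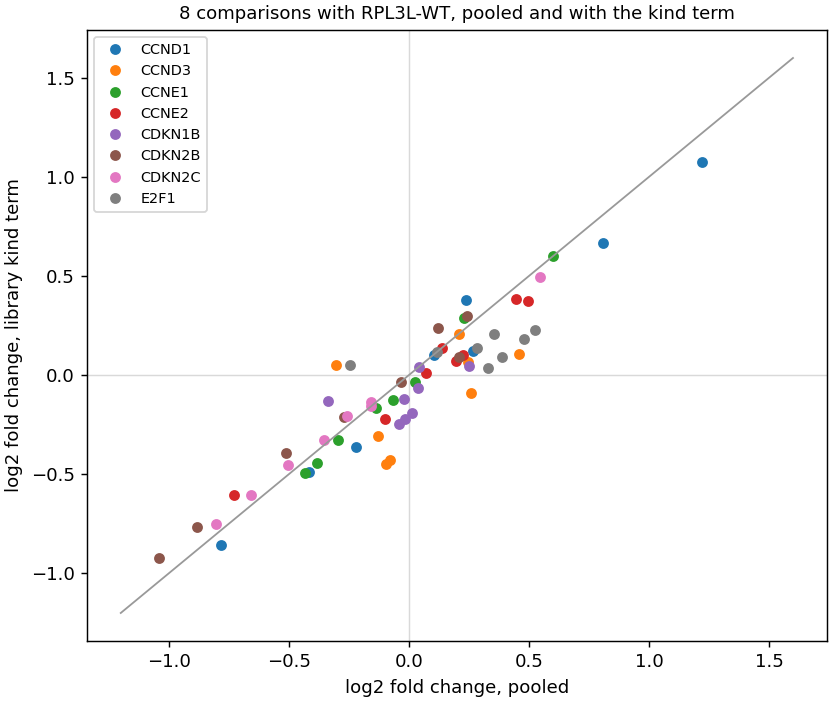
Log2 fold change of each of the 8 tested genes pooled (x axis) and with the library kind term (y axis) in the 8 comparisons that hold RPL3L-WT, with 1 colour per gene and a line where both are equal. CCND3, CDKN1B and E2F1 leave the line most, as in D308N, where CCND3 goes from -0.10 to -0.45 and E2F1 from 0.48 to 0.18, while CCND1, CDKN2B and CDKN2C keep close to it.

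CCND1 and CDKN2B stood in opposite order at both ends, in R343W and D308V and in R161W, while G27D was low in both (28.7 and 21.6 TPM). The ratio of their TPM values was 7.51 ± 0.776 in R343W, 4.99 ± 0.200 in D308V and 2.58 ± 0.133 in D308N (SD, n = 3). It was 1.64 ± 0.232 in T189M, 1.52 ± 0.440 in RPL3L-WT, 1.46 ± 0.187 in shRPL3, 1.37 ± 0.361 in G27D, 1.17 ± 0.165 in P291L, 1.03 ± 0.0939 in shScramble and 0.709 ± 0.0491 in R161W. Each library of R343W, D308V and D308N had a ratio above every library of the other 7 groups, where the highest was 2.01 in RPL3L-WT 3. Over the 10 group means of first-kind libraries, Pearson's r of log2 values was -0.86, a description of groups that share 1 table. CDKN2C and CDKN2B had an r of 0.71, and CCND1 and CDKN2C one of -0.43.

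**Figure D4:**
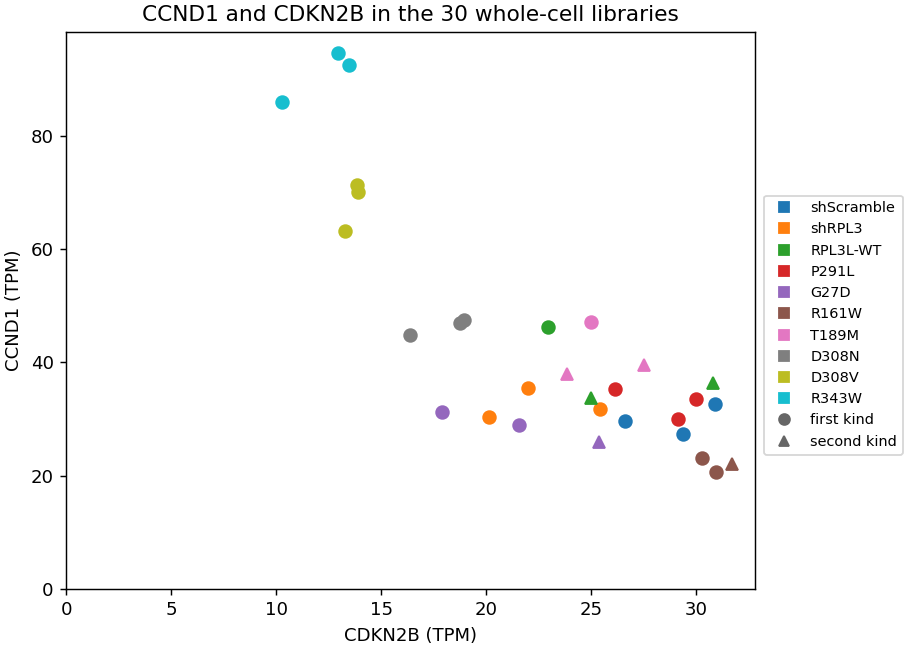
TPM of CCND1 (y axis) against CDKN2B (x axis) in the 30 libraries, coloured by group, with triangles for second-kind libraries. The R343W and D308V libraries stand at the upper left, with 10.3 to 13.9 TPM of CDKN2B, and the R161W libraries at the lower right, with 20.6 to 23.1 TPM of CCND1.

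Some genes of the table followed the same order over the 10 group means of first-kind libraries. Among 10393 genes of at least 5 TPM, those most like CCND1 by Pearson's r were the growth factor gene FGF2 (0.96), PCGF5 (0.96) and LIF (0.95), a cytokine gene. Those most like CDKN2B were PDGFRB (0.98), which codes for a PDGF receptor, SDC2 (0.98) and LGMN (0.97). For CDKN1B they were CLK1, PDCD6IP and GBE1, each at 0.97. These 3 members, with the widest ranges, were the ones planned, and the others are given in addition. For CDKN2C they were ACOT9 (0.98), ANXA1 (0.97) and THY1 (0.97), and for CCNE2 they were TCFL5 (0.98), EI24 (0.97) and SCMH1 (0.97). The most alike was LZTR1 for CCNE1 (0.94, among 10394 genes), PARK7 for CCND3 (0.96) and SLC12A7 for E2F1 (0.96). PDGFRB and THY1 are 2 of the 8 fibroblast markers. These values are descriptions over 10 points.

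The rest of the pathway was read from a list of 32 other G1 genes, all tested. In shRPL3 against shScramble 6 of the 32 rose and 5 fell (median 0.05), where 17.2% and 18.0% of all genes did. With the kind term these were 9 and 7, where 24.4% and 24.5% did. Among them were CKS1B, a kinase subunit gene (0.66), and MYC (0.48) upward and RBL2, a retinoblastoma relative (-0.56), downward. In RPL3L-WT against shRPL3 1 rose and 17 fell (median -0.32, beside -0.19 for all genes), and within kinds 0 and 9 (median -0.14, beside -0.10). Of all genes 5.77% rose and 30.2% fell, and within kinds 6.27% and 20.1%. E2F5 (-0.90, -0.69 within kinds) and RB1, the retinoblastoma gene itself (-0.61, -0.37 within kinds), led the lower ones. Against RPL3L-WT, 12 rose and 3 fell in D308N, 12 and 5 in D308V and 15 and 4 in R343W, and within kinds 5 and 5, 6 and 4, and 12 and 4. The shares of all genes were 23.7% and 9.48%, 21.6% and 9.03%, and 24.5% and 9.19%. Within kinds they were 17.5% and 12.8%, 16.2% and 12.7%, and 18.8% and 12.6%. CDK4, the partner kinase of D cyclins, was higher by 0.78 in D308N, 0.91 in D308V and 0.85 in R343W pooled, and by 0.20, 0.34 and 0.28 within kinds, all past the threshold. SKP2 was lower by 0.66 in D308N and 0.73 in D308V, and rose by 0.52 in R161W, while CDKN2D was lower by 0.91 in D308N and 0.72 in D308V. SKP2 was also called lower in R343W in both fits. In R343W, CDKN2D was at 0.04 against RPL3L-WT (adjusted p = 0.805) and higher than in shRPL3 by 0.42 (adjusted p = 0.00888). R161W had 5 higher and 1 lower, with CDKN1A, the gene of p21, at 0.60 (0.48 within kinds) and CDK6 at -0.28 (-0.34 within kinds). CDKN1A was also called higher in both fits in D308N (0.55, 0.30 within kinds) and R343W, and in D308V in the pooled fit only. P291L had 2 higher and 1 lower, G27D 0 and 1, and T189M 0 and 0. Within kinds R161W had 8 and 5, P291L 0 and 0, G27D 2 and 2, and T189M 3 and 1. Against shRPL3 the counts were 1 and 6 in P291L, 3 and 7 in D308N, 0 and 7 in D308V and 3 and 7 in R343W, with RB1 and RBL2 lower in all 4, and D308N against D308V gave 0 and 0. With the kind term these were 2 and 13, 6 and 12, 3 and 10, 6 and 8, and 3 and 0. The pooled shares of all genes in the 4 lines were 4.67% and 15.0%, 5.73% and 12.4%, 5.19% and 11.1%, and 7.22% and 12.4%. With the kind term they were 8.52% and 27.3%, 11.2% and 22.2%, 9.67% and 22.4%, and 12.7% and 22.8%. The shares of all genes called, given above for each comparison and fit, are the background to these counts.

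E2F targets of DNA synthesis were read from a list of 30 genes, all tested. Of 26 with a promoter window, 10 held an E2F word of the kind shown above. In shRPL3 against shScramble 3 of the 30 rose and 7 fell (median -0.11), where 17.2% and 18.0% of all genes did. With the kind term these were 3 and 10, where 24.4% and 24.5% did. MCM6 (-0.82) and MCM5 (-0.57), subunits of the replicative helicase, fell, and CHEK1, a checkpoint kinase gene, rose (0.55). In RPL3L-WT against shRPL3 1 rose and 13 fell (median -0.20, beside -0.19 for all genes), and within kinds 1 and 12 (median -0.13). Of all genes 5.77% rose and 30.2% fell, and within kinds 6.27% and 20.1%. Against RPL3L-WT, 7 rose and 4 fell in D308N, 7 and 4 in D308V, 6 and 1 in R343W, 5 and 1 in R161W, 0 and 2 in P291L, 0 and 0 in G27D and 0 and 0 in T189M. Within kinds the counts in the same order were 7 and 9, 7 and 4, 8 and 5, 7 and 3, 0 and 3, 2 and 4, and 3 and 0. For the first 4 lines the shares of all genes were 23.7% and 9.48%, 21.6% and 9.03%, 24.5% and 9.19%, and 12.6% and 4.07%. Within kinds they were 17.5% and 12.8%, 16.2% and 12.7%, 18.8% and 12.6%, and 16.1% and 8.87%. CDT1, which licenses replication origins, was higher by 1.02 in D308N (0.75 within kinds) and by 0.77 in D308V (0.50 within kinds). GINS2, of the replication fork complex, was lower by 0.42, 0.43 and 0.67 in D308N, D308V and R343W. Against shRPL3, 0 rose in the 4 pooled fits, and 9 fell in P291L, 10 in D308N, 5 in D308V and 5 in R343W, with CDK1 lower in each. Adding the kind term, 2 rose and 18 fell in P291L, 6 and 14 in D308N, 3 and 12 in D308V, and 4 and 10 in R343W. D308N against D308V gave 0 and 0 pooled, and 0 and 1 with the kind term. The same shares of all genes are the background here.

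The proliferation marker MKI67 stood in another order over the groups than CCND1. It averaged 67.4 ± 0.567 TPM in shScramble, 51.6 ± 3.14 in shRPL3 and 54.8 ± 1.83 in RPL3L-WT (SD, n = 3). R343W, with the most CCND1, held 57.5 ± 6.19 TPM, while D308V held 35.7 ± 1.52 and D308N 30.6 ± 1.89, the lowest groups. R161W, with the least CCND1, held 61.0 ± 3.38. D308N and D308V libraries did not overlap those of any other group in MKI67. TOP2A, another such marker, averaged 125 ± 8.40 TPM in R343W, 124 ± 5.98 in D308V and 121 ± 7.47 in D308N, against 163 ± 8.21 in shRPL3. P291L was near these lines, at 132 ± 1.98 TPM. Second-kind libraries were high in TOP2A, as in G27D, with 141, 144 and 222 TPM, where replicate 3 is of that kind. PCNA, also such a marker, averaged 341 ± 9.91 TPM in R343W, against 336 ± 8.12 in shRPL3 and 301 ± 9.90 in RPL3L-WT. It was lowest in P291L (267 ± 5.28), below D308N (287 ± 10.7) and D308V (293 ± 11.6). The part that the share of dividing cells has in the G1 gene values was not tested.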

How the data were processed

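Per the labels, whole-cell polyadenylated RNA was sequenced from 30 AC16 libraries, and the 12 nuclear libraries were not used here. Per the submitters' processing notes, bcl2fastq 2.19, kallisto, Bowtie and bedtools were used. For the table's index, annotation and build the sources used here give nothing. The deposited gene table holds TPM values, and since TPM keeps no depth, the read depth of each library is unknown and no counting interval is given. Gene positions are those of GENCODE 29 and promoter windows those of RefSeq. Values were taken as log2(TPM + 1), genes with a mean under 1 TPM over the 30 libraries were left out, and 1 limma (3.58.1, R 4.3.3) fit over all 10 groups with empirical Bayes moderation and an intensity trend gave each contrast, with Benjamini-Hochberg adjustment over all 14426 genes and a threshold of 0.05. The fit was tested on simulated data. Library kinds came from 337 pseudogenes of any type. The EBFP2 to rtTA3 ratio of the construct libraries did not enter the split and fell into the same sets (0.971 to 1.05 in 18, 1.43 to 1.57 in 6). Members and lists were chosen with earlier results of these data known. All 10 members are described, and of the other lists the genes with the largest called change in each comparison, up to 6 per list, could be named. Alternatives were a pseudocount of 0.1, no filter, median-ratio scaling, the 2 compared groups alone, a kind term, first-kind libraries alone, a replicate block, and each library left out. Figures were drawn with matplotlib 3.10.9.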

Additional observations from a re-analysis of the deposited data

Results flagged for a closer look

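CCND1 differed between the lines of the same residue. D308N minus D308V was -0.54 on the log2(TPM + 1) scale (SE 0.10, adjusted p = 0.00517 by limma), and the D308N libraries, at 44.8 to 47.5 TPM, were all below the D308V libraries, at 63.3 to 71.3. It is listed here because the contrast itself was tested. Both lines have first-kind libraries only, and no library left out in turn ended the call. RPL3L itself averaged 5116 ± 143 TPM in D308N and 2854 ± 166 in D308V (SD, n = 3), and its part in the CCND1 difference was not tested.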

How the results depend on the processing

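In all, 62 differences of single members that passed pooled or with the kind term were followed. With a pseudocount of 0.1 all 62 kept their direction and side of the threshold, and with a replicate block 61 did, while CCND1 in RPL3L-WT against shRPL3 passed (0.24, adjusted p = 0.0446 by limma). CCND1 in D308N against RPL3L-WT, outside those 62, passed under the block as well (0.27, adjusted p = 0.0281). Replicate numbers did not pair the libraries: same-numbered deviations correlated at a median of -0.003 over 135 pairs of groups, above 0.1 in 10. The block moved no count of called members by over 1.5 times, and the count over all groups stayed at 8 of 8. With the kind term 35 kept their side, 22 more passed, 4 no longer did and 1 changed sign.

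Counts of called members moved as follows. With the kind term R161W against RPL3L-WT went from 2 to 4, T189M from 0 to 2, D308N from 3 to 5, D308N against shRPL3 from 4 to 7, R343W against shRPL3 from 3 to 6 and D308N against D308V from 1 to 2. The replicate block with the kind term gave the same 4, 2, 7, 6 and 2, leaving out D308N against RPL3L-WT, and first-kind libraries alone gave 7, 6 and 2 for the last 3. With the 2 compared groups alone, P291L, G27D and R161W against RPL3L-WT each had 0 (from 1, 2 and 2) and D308N against D308V had 2. Without a filter, P291L had 0 and G27D 1, and with median-ratio scaling P291L had 2. Without a filter the calls of CDKN2B in shRPL3, CCND1 in G27D, CDKN2C in P291L, E2F1 in D308V, CCND3 in R343W and CDKN1B in D308V against shRPL3 ended (adjusted p = 0.0591, 0.0536, 0.0576, 0.0996, 0.0735 and 0.0829).

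Leaving out 1 library gave 0 to 4 for P291L, 1 to 2 for G27D, 2 to 5 for R161W, 0 to 0 for T189M, 2 to 4 for D308N, 3 to 5 for D308V and 4 to 6 for R343W against RPL3L-WT, and 2 to 4 for D308N against shRPL3. P291L reached 4 and R161W 5 without RPL3L-WT 3, and D308N against shRPL3 had 2 without shRPL3 2. With the kind term, a choice made after seeing the data, leaving out 1 library gave 0 to 1, 3 to 4, 2 to 4, 0 to 2, 3 to 5, 4 to 6 and 5 to 6 for the same 7 lines, 6 to 7 and 4 to 6 for D308N and R343W against shRPL3, and 1 to 2 for D308N against D308V. The causes were not tested.

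Among the differences followed, signs turned for values near 0 only. CDKN1B in D308V against RPL3L-WT, 0.01 pooled, was -0.12 with median-ratio scaling, -0.19 with the kind term and with the replicate block beside it, -0.24 in first-kind libraries, -0.055 to 0.14 with 1 library left out, and -0.24, -0.21, -0.20, -0.17, -0.16 and -0.14 with the kind term too. With 1 library left out, CCND3 against RPL3L-WT ran from -0.24 to 0.071 in G27D, -0.21 to 0.089 in D308N and -0.19 to 0.11 in D308V, and CDKN1B from -0.084 to 0.11 in D308N and -0.11 to 0.089 in R343W, with the highest value without RPL3L-WT 3 in all but G27D (without G27D 3). Outside the differences followed, larger pooled values also turned with the kind term, without passing in either fit. In RPL3L-WT against shRPL3, CCND3 went from -0.30 to 0.05 and E2F1 from -0.24 to 0.05. In P291L against RPL3L-WT, CCND3 went from 0.26 to -0.09. TPM without depth, 3 libraries a group and a single first-kind RPL3L-WT library limit every comparison with RPL3L-WT.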
